A study of Marmota monax with 203 samples.

Results

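The IFIT genes, interferon-induced genes with tetratricopeptide repeats, are represented in these liver transcriptomes by 4 genes chosen by their symbols, IFIT1, IFIT2, IFIT3 and IFIT5, of 17587 genes in all. The animals were adult woodchucks of both sexes that had been infected as newborns with the woodchuck hepatitis virus strain WHV7-11 and had become chronic carriers, so both groups were infected. One group received woodchuck IFN-α5 (wIFN-α), made in HEK293F cells, a human embryonic kidney line, by repeated subcutaneous injection, and the other received placebo on the same schedule. Liver was biopsied before treatment (week -3), hours after a dose of 20 µg at weeks 0 and 3, hours after a dose of 100 µg at weeks 7, 11 and 15, and after the last dose at weeks 19 and 23. The biopsies compared came from 11 wIFN-α animals and 12 placebo animals, and animal M1004, which the study had set aside, was left out. Group sizes over the 8 weeks were 11, 11, 9, 9, 8, 8, 6 and 6 for wIFN-α and 12, 12, 12, 12, 10, 9, 5 and 9 for placebo. All 4 genes were listed in all 203 sequencing runs, with 9 to 250744 reads per biopsy, and all 4 passed the filter on low counts at every week.

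IFIT proteins are made in most cells after type I interferon binds its receptor and the ISGF3 transcription factor reaches interferon response elements. They bind viral RNA and limit its translation. IFIT1 recognises mRNA caps that lack ribose methylation, IFIT3 binds and stabilises IFIT1, IFIT2 pairs with both and with subunits of the initiation factor eIF3, and IFIT5 acts alone on RNA that carries a triphosphate at its 5′ end. In the RefSeq annotation of the woodchuck assembly Marmota_monax_Labrador192_F-V1.1, Ifit2 and Ifit3 are neighbours, lie between Lipa and Slc16a12 and share that interval with 5 loci that carry no gene name. IFIT1 and IFIT5 have no entry by symbol there.

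Some biopsies stood apart from the rest. Reads on 10 hepatocyte genes made up 0.0319% of gene reads in wIFN-α animal F1018 and 0.0429% in placebo animal F1016 at week -3, against 4.10% to 19.8% in the other 147 biopsies. In the same 2 biopsies 10.8% and 10.5% of reads lay on 12 skeletal muscle genes, so the liver label of these 2 was not borne out by their markers. Muscle genes also took 6.06% of reads in F1023 (wIFN-α, week 0) and 9.39% in F1021 (placebo, week 3). The biopsy of wIFN-α animal F1013 at week 3 had IFIT levels near those of placebo. Most ranges and calls that these biopsies set are given with and without them. F1023 held the lowest IFIT2, IFIT3 and IFIT5 of the wIFN-α animals at week 0. The next lowest values there were 1637, 760 and 182 CPM, in M1006. The biopsies held 12072840 to 84805845 gene reads.

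Without wIFN-α the IFIT genes were expressed at low levels. Levels are given as counts scaled to library size with the trimmed mean of M-values (CPM). Over the 81 placebo biopsies IFIT1 lay between 8.26 and 25.2 CPM, a 3.05-fold range with a median of 13.4. IFIT2 lay between 9.97 and 167 CPM with a median of 52.4. IFIT3 lay between 4.19 and 32.5 CPM with a median of 10.9. IFIT5, the weakest, lay between 0.551 and 20.1 CPM with a median of 9.06. The lowest IFIT2, IFIT3 and IFIT5 values were those of the muscle-rich biopsy of F1016, and without it the lowest were 23.4, 5.83 and 3.92 CPM. Divided by transcript length (1880 bases for IFIT1, 3489 for IFIT2, 2640 for IFIT3 and 4015 for IFIT5), the placebo medians were 15.02 CPM per kilobase for IFIT2, 7.10 for IFIT1, 4.14 for IFIT3 and 2.26 for IFIT5. This order held within nearly every placebo biopsy. Per kilobase IFIT2 was above IFIT1 in 80 of 81, IFIT1 above IFIT3 in 77 of 81, and IFIT3 above IFIT5 in 79 of 81. The 4 biopsies with IFIT3 above IFIT1 were all of week 23, where 9 placebo animals were biopsied, so these 2 genes lay close there.

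IFIT1, the cap sensor, was raised in every wIFN-α animal after the first dose. Its level at week 0 had a lowest value of 231 CPM, a median of 411 and a highest value of 466 in the 11 wIFN-α animals, and in the 12 placebo animals these values were 10.4, 14.2 and 22.6. The groups did not overlap, and the lowest wIFN-α animal stood 10.2-fold above the highest placebo animal. At week 15 the wIFN-α values were 448, 521 and 816 CPM, against 10.8, 13.7 and 18.1 in placebo. The fitted change was 25.1-fold at week 0 and 41.0-fold at week 15 (log2 5.36 ± 0.14 SE, adjusted p = 6.62e-15, edgeR quasi-likelihood test).

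IFIT2, the partner of IFIT1 and IFIT3, was the most abundant member on treatment. At week 0 its lowest, median and highest values were 1553, 3832 and 4590 CPM with wIFN-α and 58.2, 84.8 and 167 with placebo. At week 15 they were 2836, 3877 and 5939 CPM against 38.8, 43.7 and 65.5. No wIFN-α animal overlapped placebo at either week. The fitted change was 37.1-fold at week 0 and 85.2-fold at week 15 (log2 6.41 ± 0.18 SE, adjusted p = 1.33e-14), while the median of the treated animals was nearly the same at both weeks.

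IFIT3, which stabilises IFIT1, changed by the largest factor of the 4 at each of the 5 treatment weeks. At week 0 it reached 568, 1288 and 1665 CPM (lowest, median, highest) with wIFN-α against 5.83, 10.7 and 29.4 with placebo, a fitted change of 93.6-fold. The fitted change was 159-fold at week 7 (log2 7.32 ± 0.18 SE, adjusted p = 6.11e-19) and 128-fold at week 15. Among the 13764 to 13878 tested genes with at least 1 CPM on average, IFIT3 ranked 2, 1, 3, 4 and 5 by log2 fold change at weeks 0, 3, 7, 11 and 15. IFIT2 ranked 11, 7, 7, 6 and 7.

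IFIT5, the sensor of triphosphate RNA, was the least abundant member on treatment and showed the smallest factor at all 5 treatment weeks. At week 0 it had 142, 300.4 and 377 CPM (lowest, median, highest) with wIFN-α against 7.41, 11.2 and 20.1 with placebo, a fitted change of 22.7-fold. At week 15 it had 247, 276 and 419 CPM against 6.61, 8.89 and 12.1, a fitted change of 33.1-fold (log2 5.05 ± 0.14 SE, adjusted p = 1.09e-14). The groups did not overlap at these weeks.

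**Figure D1:**
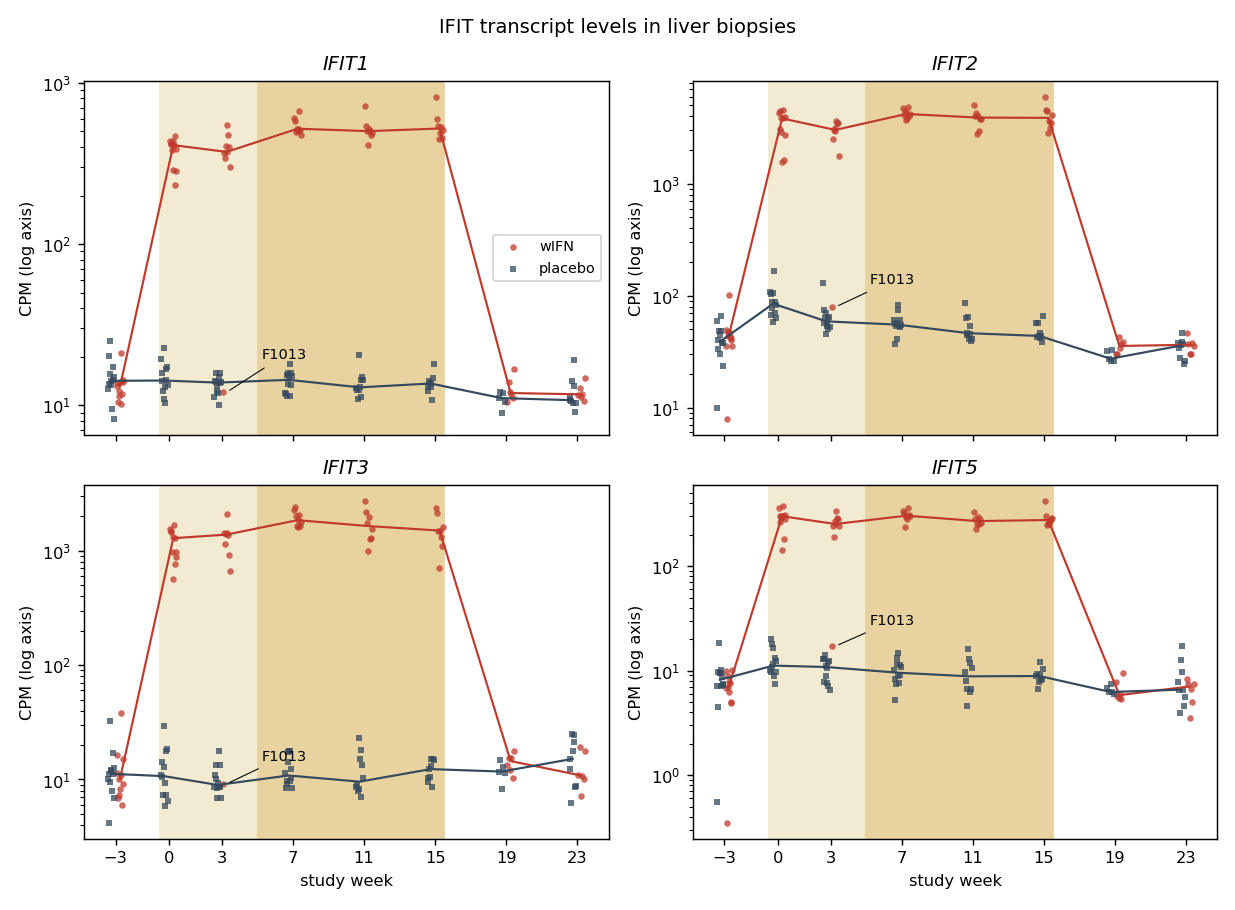
Levels of the 4 IFIT genes in each biopsy by study week, in CPM on a log axis. Red circles are wIFN-α biopsies, dark squares placebo biopsies, and lines join group medians. Light and dark shading set apart the biopsies taken at 20 µg and at 100 µg. The edge between the shades lies between biopsy weeks and does not mark when the dose was raised. The wIFN-α biopsies sit far above placebo at weeks 0 to 15 except that of F1013 at week 3, and return to placebo levels at weeks 19 and 23.

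Against time-matched placebo, 4 of 4 members were called higher, which asked for a change of more than 1.5-fold with an adjusted p below 0.05, at each treatment week. Among all genes tested the share called higher was 10.3% at week 0, 7.24% at week 3, 11.4% at week 7, 12.6% at week 11 and 13.4% at week 15. For 4 of 4 members the groups did not overlap at weeks 0, 7, 11 and 15. The share of all genes without overlap was not computed, so this count has no background beside it. The smallest gap was 7.07-fold, for IFIT5 at week 0, and the widest was 91.3-fold, for IFIT3 at week 7, each between the lowest wIFN-α animal and the highest placebo animal. The smallest gap was set by the muscle-rich biopsy of F1023 (142 CPM), where the next lowest animal, M1006, had 182 CPM. Over single runs of the treatment weeks the mean difference of the 4 members was log2 5.51. Within the 7 lane numbers of the sample titles it lay between 4.62 (number 2, which holds the week 3 biopsy of F1013) and 5.97. The same barcode recurs under 1 lane number in different samples, so a number need not be 1 physical lane. In bulk tissue, more RNA per cell and more cells that express a gene cannot be told apart.

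Week 3 was the exception, through 1 animal. F1013 had 12.0 CPM of IFIT1, 79.1 of IFIT2, 9.14 of IFIT3 and 17.1 of IFIT5 in that biopsy, where the other 8 wIFN-α animals had at least 301, 1781, 663 and 191. Its IFIT1, IFIT2 and IFIT3 lay inside the placebo range of the week, and its IFIT5 was 1.23-fold above the highest placebo value of 14.0. Of 30 other antiviral interferon-stimulated genes, 1 was above the placebo range in this biopsy, against 27 or more in each of the other 44 treated biopsies. The same animal had 439 CPM of IFIT1 at week 0 and the highest levels of all 4 members at week 15. The biopsy held 27114331 gene reads and 0.0212% muscle reads. Without it, IFIT3 changed by a log2 of 6.99 at week 3 (adjusted p = 6.86e-15) in place of 6.82 ± 0.52 SE (adjusted p = 2.05e-08), and 4 of 4 members were called either way.

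**Figure D2:**
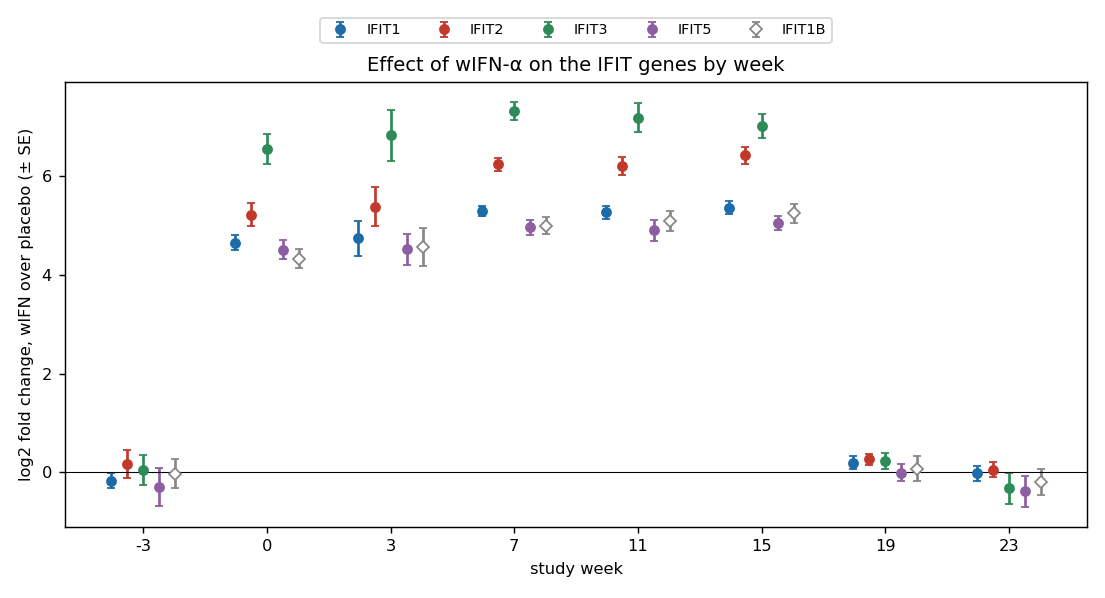
Log2 fold change of wIFN-α over placebo (points, with bars of 1 SE, from edgeR) for the 4 IFIT genes and the related gene IFIT1B by study week. At weeks 0 to 15 IFIT3 lies highest, IFIT2 next, and IFIT1, IFIT5 and IFIT1B lowest between log2 4.33 and 5.36, and all lie near 0 at weeks -3, 19 and 23.

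Because the 4 genes rose by different factors, the make-up of this set of 4 changed. Per kilobase, IFIT3 was above IFIT1 in 44 of 45 treated biopsies, where IFIT1 was above IFIT3 in 77 of 81 placebo biopsies. The placebo exceptions were 4 of the 9 biopsies of week 23. The single treated exception was the week 3 biopsy of F1013. At week 7 IFIT3 made up 31.5% ± 2.45 (SD, n = 9) of the summed length-scaled level of the 4 genes with wIFN-α and 14.9% ± 3.65 (SD, n = 12) with placebo. IFIT1 made up 12.5% ± 0.929 with wIFN-α and 24.5% ± 3.69 with placebo. IFIT2 held about the same share in both, 52.7% ± 2.31 and 52.6% ± 6.45. On treatment the medians without the F1013 week 3 biopsy were 1093 CPM per kilobase for IFIT2, 567 for IFIT3, 254 for IFIT1 and 70.9 for IFIT5. IFIT1 and IFIT3 had thus exchanged places in the order of these 4. The related gene IFIT1B, which can share reads with IFIT1, is not in this order or in the shares. Its medians were 18.5 CPM per kilobase in placebo and 583 on treatment, so the place of IFIT1 is uncertain.

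The ratio of 2 members within a biopsy does not depend on library size, and all 6 pairs were compared at all 8 weeks (48 tests, permutation of animals, two-sided, Benjamini-Hochberg). The log2 ratio of IFIT1 to IFIT3 was -1.82 ± 0.17 (SD, n = 9) with wIFN-α and 0.25 ± 0.35 (SD, n = 12) with placebo at week 7, a difference of -2.07 (exact permutation, adjusted p = 8.17e-05), and the groups did not overlap. The ratio of IFIT3 to IFIT5 was shifted by 2.36 at the same week, again without overlap. The ratio of IFIT2 to IFIT3 fell by 1.10 and that of IFIT2 to IFIT5 was higher by 1.26. The pair of IFIT1 and IFIT5 differed least. Their ratio differed by 0.13 ± 0.15 (SE) at week 0 and 0.07 ± 0.17 at week 3, and by 0.30 ± 0.10 at week 15, where it passed (exact permutation, adjusted p = 0.0259). In all, 5 of 6 pairs passed at weeks 0, 3, 7 and 11, 6 of 6 at week 15, and 0 of 6 at weeks -3, 19 and 23.

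**Figure D3:**
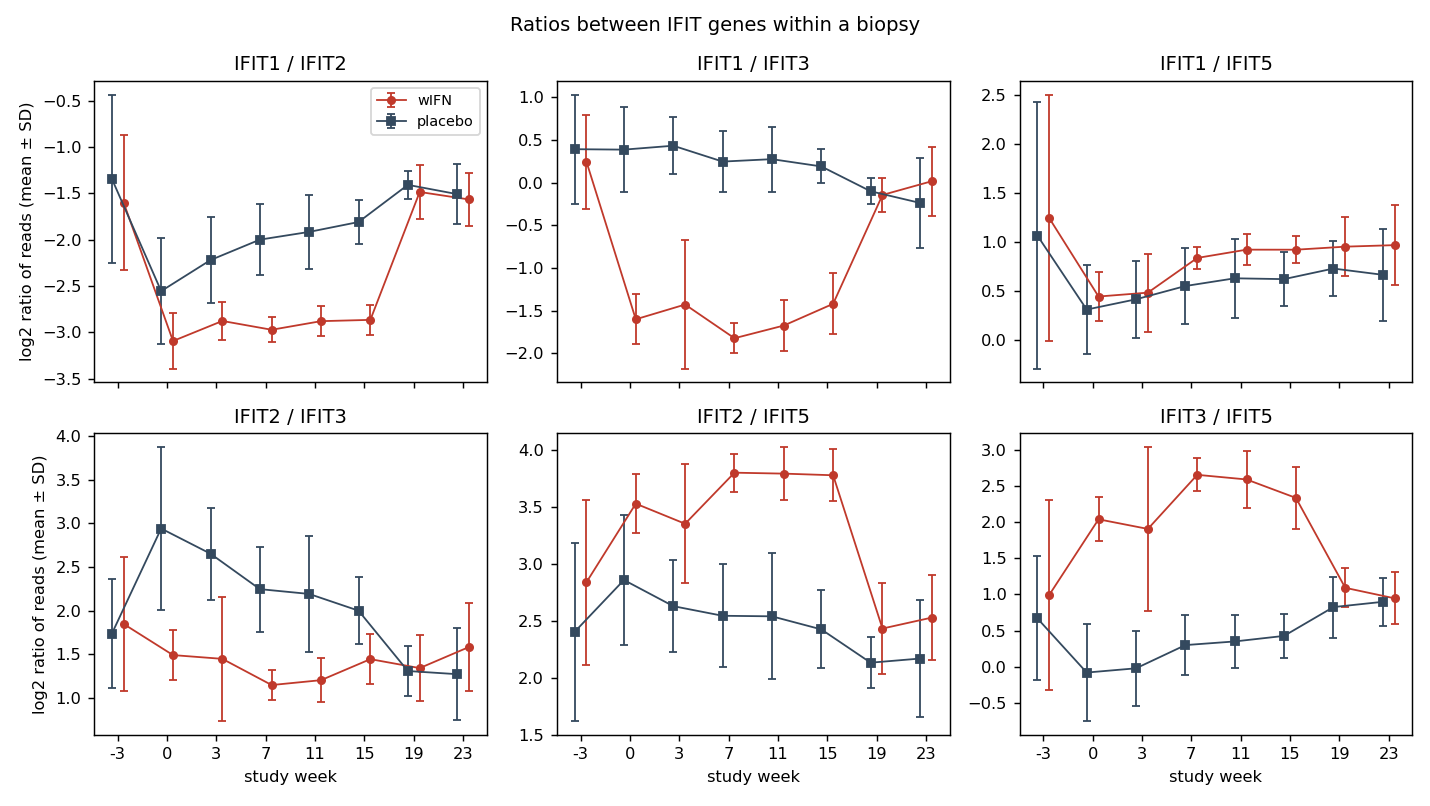
Log2 ratio of reads between each pair of IFIT genes within a biopsy by study week, as group mean with bars of 1 SD (red circles wIFN-α, dark squares placebo). IFIT1 over IFIT3 and IFIT3 over IFIT5 part most widely at weeks 0 to 15 (IFIT1 over IFIT3 is -1.82 against 0.25 at week 7), IFIT1 over IFIT5 parts least, and all pairs meet at weeks 19 and 23.

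The question of dose was put by comparing the effect (wIFN-α minus placebo, log2) between weeks in 1 fit of all biopsies. At week 15 against the mean of weeks 0 and 3, IFIT2 had a larger effect by 1.10 ± 0.29 SE (adjusted p = 0.0198), and it was the only member of 4 to pass, where 2.26% of all genes did. IFIT1 differed by 0.64 ± 0.22 (adjusted p = 0.116), IFIT5 by 0.51 ± 0.32 (adjusted p = 0.497) and IFIT3 by 0.29 ± 0.37 (adjusted p = 0.819). The call on IFIT2 rested on both groups. In placebo IFIT2 fell by 0.65 on the log2 scale from weeks 0 and 3 to week 15 (adjusted p = 0.0120, 11.5% of genes called), and in treated animals it was 0.45 ± 0.21 higher (adjusted p = 0.106, 9.65% of genes called). IFIT1 showed the other pattern, with a rise of 0.60 ± 0.16 in treated animals (adjusted p = 0.00281) and -0.04 ± 0.15 in placebo. Both of these splits by group were chosen after the levels had been seen. Without animal M1012 the IFIT2 difference was 1.00 (adjusted p = 0.0524), and without the week 3 biopsy of F1013 IFIT1 passed as well, at 0.56 (adjusted p = 0.0413).

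Neighbouring weeks on treatment were closer. Between week 7, the first biopsy at 100 µg, and week 3, the last at 20 µg, the effect was larger at week 7 by 0.53 ± 0.24 for IFIT1, 0.85 ± 0.32 for IFIT2, 0.49 ± 0.40 for IFIT3 and 0.44 ± 0.35 for IFIT5, and 0 of 4 passed (edgeR, 2 of 4 at an unadjusted p under 0.05, background 1.15%). Against week 0 the effect at week 7 was larger by 1.01 ± 0.31 for IFIT2 (adjusted p = 0.128) and 0.63 ± 0.24 for IFIT1 (adjusted p = 0.299), and 0 of 4 passed (2 of 4 unadjusted, background 0.29%). Without the week 3 biopsy of F1013, which shares its spread with this fit, IFIT2 passed there (adjusted p = 0.0413). The effect at week 3 against week 0 differed by 0.01 to 0.27 (0 of 4, also unadjusted, background 2.4%), and that at week 15 against week 7 by -0.33 for IFIT3 to 0.17 for IFIT2 (0 of 4, also unadjusted, background 0.0246%). The doses follow each other in time, so dose and time on treatment cannot be told apart.

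The spread between treated animals varied with the week. At week 7 the SD of log2 CPM was 0.16 for IFIT1, 0.13 for IFIT2, 0.21 for IFIT3 and 0.17 for IFIT5 over 9 animals, against 0.22, 0.32, 0.42 and 0.41 in placebo. At week 15 it was 0.28, 0.34, 0.54 and 0.24 with wIFN-α against 0.20, 0.25, 0.31 and 0.25 in placebo, and IFIT3 ran from 710 CPM in F1020 to 2343 CPM in F1013. At week 0 IFIT2 had 0.55 against 0.42, and at week 3, with the biopsy of F1013, the treated SD was 1.33 to 2.41. F1020 also had the lowest IFIT3 at week 11 (987 CPM) and F1013 the highest (2716 CPM).

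After treatment ended the difference was no longer detected. At week 19 IFIT1 lay between 10.5 and 16.9 CPM in the 6 wIFN-α animals and between 8.94 and 12.1 in the 5 placebo animals, IFIT2 between 30.3 and 42.6 against 25.8 and 33.0, IFIT3 between 10.3 and 17.6 against 8.22 and 14.9, and IFIT5 between 5.36 and 9.53 against 6.01 and 7.50. The groups overlapped for 4 of 4 members. The effect minus that at week 15 was -5.14 for IFIT1, -6.13 for IFIT2, -6.76 for IFIT3 and -5.03 for IFIT5 on the log2 scale, with 4 of 4 passing (highest adjusted p = 7.67e-18, background 14.8%). Against placebo 0 of 4 members were called at week 19 by edgeR or DESeq2. In the edgeR fit 1 of 4, IFIT2, had an unadjusted p under 0.05, and 0% of genes were called at weeks 19 and 23 (1859 and 2416 genes unadjusted, and 87 and 35 called by DESeq2). At week 23 the effects were -0.02 ± 0.15 for IFIT1, 0.06 ± 0.15 for IFIT2, -0.32 ± 0.31 for IFIT3 and -0.39 ± 0.31 for IFIT5, with 0 of 4 called by either tool and 0 of 4 unadjusted.

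Over both follow-up weeks the mean effect ran from -0.18 ± 0.23 for IFIT5 to 0.17 ± 0.20 for IFIT2, with 0 of 4 called, also unadjusted, where 2.54% of genes were. Between weeks 23 and 19 the effect passed for 0 of 4 members, also unadjusted, with differences from -0.53 ± 0.52 for IFIT3 to -0.19 ± 0.41 for IFIT2 (background 0%, 366 genes unadjusted). Before treatment, at week -3, the effects were -0.17 ± 0.15 for IFIT1, 0.18 ± 0.28 for IFIT2, 0.05 ± 0.31 for IFIT3 and -0.30 ± 0.38 for IFIT5, with 0 of 4 members called by edgeR or DESeq2 and 0% of genes (130 unadjusted). The muscle-rich biopsies of F1018 and F1016 held the lowest IFIT5 of that week, 0.351 and 0.551 CPM, and without them the lowest values were 4.88 and 4.54.

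In placebo animals IFIT2 was the only member called between week -3 and week 0. Its lowest, median and highest values were 9.97, 38.9 and 65.4 CPM at week -3 and 58.2, 84.8 and 167 at week 0, and it was higher at week 0 in 12 of 12 placebo animals. Leaving out F1016, the week -3 values started at 23.4 CPM and the level was higher at week 0 in 11 of 11 animals. In the fit the rise was 1.18 ± 0.21 on the log2 scale (adjusted p = 1.16e-05), where 7.69% of genes were called in either direction, and it was 1.08 (adjusted p = 6.87e-06) without the biopsies rich in muscle. IFIT1 changed by 0.01 ± 0.16 and IFIT3 by 0.02 ± 0.26. IFIT5 was 0.55 ± 0.23 higher (adjusted p = 0.0798), and it passed with the animal as a block (0.60, adjusted p = 0.0335). This comparison was chosen after the placebo levels of IFIT2 had been seen.

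IFIT2 then declined in placebo, with medians of 58.9 CPM at week 3, 55.1 at week 7, 46.2 at week 11 and 43.7 at week 15. From week 0 to week 15 it fell by 0.89 ± 0.23 on the log2 scale (adjusted p = 0.00198, 11.1% of genes called), and 0 of the other 3 members passed. From week -3 to week 15, the pair of weeks set for placebo, 0 of 4 members were called, also unadjusted, where 14.4% of genes were. IFIT2 differed by 0.29 ± 0.22 and IFIT1 by -0.11 ± 0.17 between these weeks. Of 30 other antiviral interferon-stimulated genes 1, PARP9, was called higher in placebo at week 0 (median of the list 0.12 log2). So were 2 of 9 genes of the receptor and JAK-STAT list and 1 of 10 RNA sensors and adaptors, DHX58, while 1 of 7 cap genes, FTSJD1, was lower and 0 of 13 eIF3 subunits were called. The median share of hepatocyte reads in placebo was 15.7% at week -3 and 11.8% at week 0, and its part in the IFIT2 difference was not tested.

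**Figure D4:**
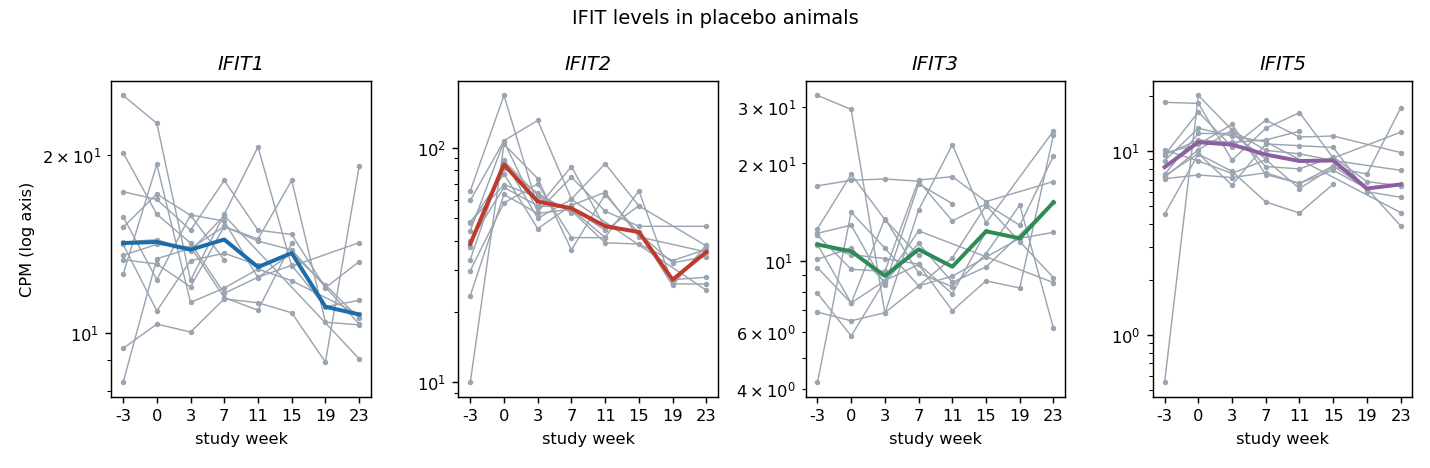
Levels of the 4 IFIT genes in placebo animals by study week, in CPM on log axes, with 1 grey line per animal and the group median in colour. IFIT2 is higher at week 0 than at week -3 in all 12 animals (medians 84.8 and 38.9 CPM) and then declines, and the low IFIT2 and IFIT5 points at week -3 belong to F1016.

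No difference in response between the sexes was detected. At week 0 the log2 effect in females minus that in males ran from -0.32 ± 0.35 for IFIT5 to 0.20 ± 0.40 for IFIT2. IFIT1 had 396 ± 56.98 CPM in 6 treated females and 356 ± 95.9 in 5 treated males (SD). At week 15 the differences ran from 0.24 ± 0.30 for IFIT2 to 0.53 ± 0.39 for IFIT3. For the interaction 0 of 4 members passed at either week, also unadjusted, with 0% of genes at both (381 and 715 unadjusted). Differences of the size of these errors could not be detected with 3 treated males at week 15.

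No relation was detected between the level before treatment and the level after the first dose. Over 11 wIFN-α animals the log2 level at week -3 against that at week 0 gave r = -0.08 and rho = -0.37 for IFIT1, r = -0.17 and rho = 0 for IFIT2, r = 0.48 and rho = 0.51 for IFIT3, and r = 0.17 and rho = 0.42 for IFIT5. The adjusted permutation p was 0.347 or higher for 4 of 4 members by either measure. After the 2 animals farthest from the median at week -3 were left out, r was -0.18 for IFIT1, 0.04 for IFIT2, 0.16 for IFIT3 and 0.54 for IFIT5. Without F1018 and F1023, whose biopsies were rich in muscle genes, IFIT3 had r = 0.63 and rho = 0.73 over 9 animals (adjusted permutation p = 0.233 and 0.127), and 0.16 for r when its own 2 farthest animals were left out.

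IFIT1B, a close relative of IFIT1 that can share reads with it, followed the same course. Its placebo level was 7.60 to 72.8 CPM (from 18.3 without F1016 at week -3). Its treated level without the F1013 week 3 biopsy was 497 to 1674 CPM (from 572 without F1023 at week 0). It rose by a log2 of 4.33 ± 0.20 at week 0 and 5.24 ± 0.20 at week 15 (adjusted p = 4.77e-13). Per kilobase its median was 18.5 in placebo and 583 on treatment, above IFIT1 in both. How reads were split between the 2 genes was not examined, so the separate levels of IFIT1 and IFIT1B are uncertain.

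The signalling chain upstream of the IFIT genes changed in part. Of 9 genes of the interferon receptor, JAK-STAT signalling and its feedback, 5 were called higher and 0 lower at each of the 5 treatment weeks (median log2 0.82 at week 15, against -0.01 over all genes tested). At week 15 USP18, which removes ISG15 and shuts off the receptor, rose by 5.62 on the log2 scale and SOCS1, a feedback inhibitor, by 1.46. JAK1 and IFNAR1 had -0.02 and 0.03.

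Of 10 RNA sensors and adaptors, 6, 6, 8, 7 and 8 were called higher at weeks 0, 3, 7, 11 and 15, and 0 lower. At week 15 the sensor IFIH1 (MDA5) had a log2 change of 4.11, the transcription factor IRF7 4.10 and the sensor DDX58 (RIG-I) 3.19. MAVS, the adaptor of both sensors, had -0.18, and IRF3 had 0.47. Of 7 tested genes that act on the RNA cap and the 5′ end, 3 were called higher at each treatment week. FTSJD2 (CMTR1), a methyltransferase that makes the cap mark IFIT1 discriminates by, rose by 2.13 at week 15, FTSJD1 (CMTR2) by 1.48 and the decapping enzyme DCP2 by 1.11. The capping enzyme RNGTT had 0.10 and NUDT16 had 0.16.

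Subunits of eIF3, the translation factor that IFIT proteins bind, were not called. Of 13 eIF3 subunits, 0 were called in either direction at each of the 5 treatment weeks (edgeR, fold change above 1.5). The median was -0.21 at week 15. There 7 of 13 had an adjusted p under 0.05 with changes below 1.5-fold, the largest being EIF3E (-0.42), EIF3H (-0.32) and EIF3M (-0.31), and EIF3J had 0.03 and EIF3B -0.07.

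Of 30 other antiviral interferon-stimulated genes, 28 of 29 tested, 27 of 28, 29 of 29, 29 of 29 and 29 of 30 were called higher at weeks 0, 3, 7, 11 and 15. The list had a median log2 change of 3.56 at week 15, where the 4 IFIT genes had 5.05 to 7.01. OASL, an antiviral oligoadenylate synthetase-like protein, rose by 7.33 and RSAD2 (viperin), a radical SAM enzyme that makes a chain-terminating nucleotide, by 7.28. MX2, a dynamin-like GTPase, went from at most 0.0658 CPM in placebo, with no read in 2 of 9 animals, to 13.6 to 56.3 CPM. IFI6 was not called (-0.25 ± 0.30). All 4 IFIT genes lay above the median of this list.

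**Figure D5:**
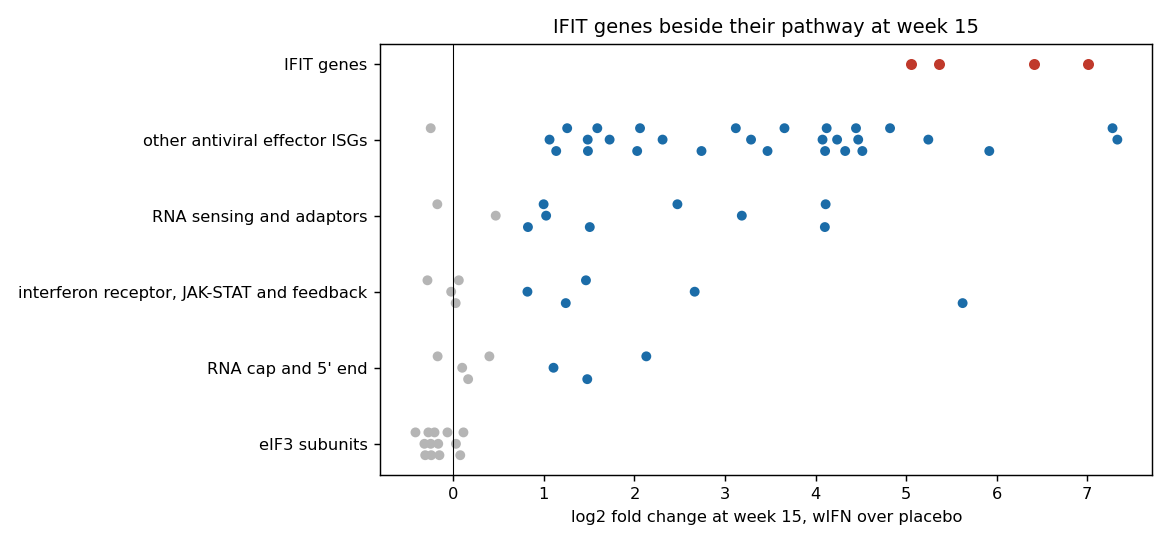
Log2 fold change at week 15, wIFN-α over placebo, for the 4 IFIT genes (red) and the genes of 5 lists, each point 1 gene (blue called higher, grey not called). MX2 is left out because its placebo level is near 0 reads. The IFIT genes lie between 5.05 and 7.01, the eIF3 subunits around 0, and the receptor and adaptor lists hold both called and uncalled genes.

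Among 13658 genes tested at all 8 weeks with at least 1 CPM in placebo, the profiles nearest to the mean IFIT profile of 8 log2 fold changes were those of CXCL10, an interferon-induced chemokine, at a root mean square difference of 0.16, APOL2 (0.23), APOL3 (0.30), APOL1 (0.43) and USP18 (0.44). IFIT2 stood at 0.25 from that mean, IFIT1 at 0.49 and IFIT5 at 0.72. IFIT3 stood farthest of the 4, beyond 0.856. CXCL10 and APOL2 were nearer to the family mean than any of the 4 members was.

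Markers of some other cells moved with treatment beside the IFIT genes. Among all genes tested, 7.24% (week 3) to 13.4% (week 15) were called higher at the treatment weeks. The single calls on neutrophil and hepatocyte genes below lie near that share. Of 10 T and NK cell genes, 3, 4, 4, 9 and 10 were called higher at weeks 0, 3, 7, 11 and 15, and at week 15 their summed reads were 0.0120% to 0.0271% of gene reads with wIFN-α and 0.00573% to 0.00861% with placebo, led by GZMA (2.29), PRF1 (1.96) and CD2 (1.87). For B and plasma cells, 4 of 7 tested genes passed upward at week 15, with sums of 0.00140% to 0.00973% against 0.000943% to 0.00259%. CD38 (1.90), MZB1 (1.76) and MS4A1 (1.58) led that list. Of 8 myeloid genes 2, C1QA (0.94) and C1QB (0.90), were higher and 1, CD163 (-1.94), lower, with sums of 0.0446% to 0.106% against 0.0332% to 0.0644%. Of 6 neutrophil genes 1, CSF3R, was higher, with sums of 0.000988% to 0.00449% against 0.000578% to 0.00441%. Of 10 hepatocyte genes 1, FGB, was higher, and 0 of 12 muscle genes were called. At week 7, 1 of 7 B and plasma cell genes, 2 of 8 myeloid genes and 1 of 10 hepatocyte genes were called lower. There 1 hepatocyte gene and 1 neutrophil gene were called higher. No marker was at 0 in all biopsies. The part of these cells in the IFIT levels was not tested.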

How the data were processed

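Liver RNA was sequenced in 203 runs of 164 biopsies. Per the submitters' notes the processing used CASAVA, FastQC, Bowtie2, SAMtools and DESeq. The authors deposited an expected count of reads per gene and an RPKM value for each gene in every run. The deposited RPKM values were used only to work out transcript lengths, from the reads and RPKM of a gene in the run with most reads on it. Expected counts were rounded to whole numbers (118 of 3368023 entries were not whole) and runs of a biopsy were summed. The entry of the virus, 0.001% to 4.118% of a run's reads, was left out. Animal M1004 and 8 biopsies at other times were left out of all comparisons.

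Groups came from the sample labels. Weeks in the sample titles are 1 higher than the study weeks given here, from title week 1 for week 0 to title week 24 for week 23. Week -3 has the same number in both. Genes were filtered on low counts and tested with edgeR 4.0.16 in R 4.3.3 (quasi-likelihood test, trimmed mean normalization), with Benjamini-Hochberg adjustment over all genes tested. Calls asked for a change of more than 1.5-fold with an adjusted p below 0.05, and differences between weeks and between sexes at an adjusted p under 0.05. Ratios of members used 0.5 added reads and permutation tests (100000 resamples where enumeration was too long, so the smallest p they can give is 1e-05). DESeq2 1.42.0, other scaling, no filter, the deepest run only, omitted biopsies and the animal as a block were alternatives. The functions were tested on simulated data. Depth ran from 12072840 to 84805845 reads. In the fits of single weeks the p-values cover the spread between animals. The fit of all weeks, used for differences between weeks, off treatment and for placebo over time, has no animal term. It treats the biopsies of 1 animal as independent, except where the animal was a block.

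Samples with the same number come from the same animal. Their deviations from the group means correlated with a median of 0.312 over 450 same-animal pairs, against -0.00547 over 9917 other pairs. The members and lists were chosen with earlier results of these data known. The genes named are the members, IFIT1B, the 3 largest changes and up to 2 smallest uncalled changes of each list at week 15, and the 5 genes with the nearest profiles. Of the marker lists, counts and leading genes are given. A gene that this rule names is not reported here.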

Additional observations from a re-analysis of the deposited data

Results flagged for a closer look

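In groups of 4 to 10 samples, 40 tests of the lowest and highest value gave 7 values that stood apart, where chance flags about 1 in 20 groups. Of these, 4 belonged to the week 3 biopsy of wIFN-α animal F1013, low in IFIT1 (12.0 CPM), IFIT2 (79.1), IFIT3 (9.14) and IFIT5 (17.1). The same animal stood high at week 15 in IFIT1 (816 CPM) and IFIT5 (419 CPM). Placebo animal F1021 stood high in IFIT1 at week 11 (20.6 CPM).

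The effect of wIFN-α on IFIT2 was larger at week 15 than at weeks 0 and 3 by 1.10 (log2, 8 treated animals at week 15). From week 15 to week 19 the effect changed by -5.14 for IFIT1, -6.13 for IFIT2, -6.76 for IFIT3 and -5.03 for IFIT5.

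Biopsies outside the comparisons also carried the IFIT signal, given as the mean log2 level of the 4 members above the placebo mean. Animal M1004 had 5.67, 5.76, 6.13, 6.08 and 6.14 at weeks 0, 3, 7, 11 and 15. M1007 had 5.78 and F1023 had 2.30 in the biopsies taken when they died. A biopsy of M1006 labelled week 3 had 5.28. It was set apart because biopsies of study week 3 are labelled week 4.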

How the results depend on the processing

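Under the alternatives, 1212 of 1216 values of single members kept their side of the threshold, and no value past it changed sign. The summary values, such as counts of members that passed and differences within lane numbers, were graded by closeness to the main value. By that grading 420 of 425 were unchanged, and a small shift in a count could still be graded so. Values that were not called did change sign in places, such as IFIT2 at week 19 (0.26, and -0.05 with the block) and IFIT3 at week -3 (0.05, and -0.27 without M1002). With the animal as a replicate block, 2 members in place of 1 passed in placebo between weeks 0 and -3 (IFIT5 0.60, adjusted p = 0.0335), and the block changed no other call on a member. When the F1013 biopsy of week 3 was omitted (chosen after seeing the data), 1 member passed at week 7 against 0 (IFIT2 1.01, adjusted p = 0.0413) and 2 at week 15 against weeks 0 and 3 (IFIT1 0.56, adjusted p = 0.0413). That last count ran from 0 (without M1012, IFIT2 1.00, adjusted p = 0.0524) to 1 when single wIFN-α animals were left out. Within lane number 2 the mean difference of the members was 4.62. Counts over all genes moved more. A fold change above 2 left 826, 594, 919, 1074 and 1224 genes called higher at weeks 0, 3, 7, 11 and 15, in place of 1521, 1087, 1700, 1879 and 2008. Against a count of 0, 9 genes passed at week -3 and 243 at week 23 in 1 fit of all weeks, 87 at week 19 and 35 at week 23 by DESeq2, 32 at week 23 with the block and 1 at week 19 without placebo animal F1016. With the block, the counts were 168 in place of 47 for week 7 against 0, 1163 in place of 367 for week 15 against 0 and 3, 45 in place of 4 for week 15 against 7, and 15 in place of 413 off treatment. Without the muscle-rich biopsies they were 624 for week 15 against 0 and 3 and 30 for week 15 against 7, which also gave 7 with the deepest runs only and 1 without the F1013 week 3 biopsy. Leaving out single wIFN-α animals gave 123 (without M1012) to 860 (without F1018) for week 3 against 0 (389 with all), 22 (without M1003), 26 (without M1007) and 30 (without F1013) for week 7 against 0, 9 (without M1012) for week 7 against 3 (187 with all), 210 (without F1020) and 231 (without M1002) for week 15 against 0 and 3, and 0 to 47 (without M1012) for week 15 against 7. The causes were not tested. Group sizes of 5 to 9 limit what could be detected off treatment.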

Other observations

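Of the biopsies at other times, those of placebo animals F1017, F1024 and M1010 had IFIT2 levels of 38.3, 32.7 and 33.1 CPM, inside the placebo range. Among wIFN-α animals the biopsy of F1020 taken at death had 96.8 CPM of IFIT2 and that of M1002 at its last time point 46.5 CPM, both also inside that range. M1004 was inside it before treatment (33.7 CPM) and at week 19 (26.2 CPM).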
